A study of Mus musculus with 3 samples.

Results

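The 10 genes Hspa5, Hsp90b1, Dnajb9, Xbp1, Ddit3, Atf3, Atf4, Trib3, Asns and Chac1 of the endoplasmic reticulum (ER) stress response and the integrated stress response were followed by symbol through the deposited array values. All 10 were measured, each by 1 probe set, among 19938 genes with a name of their own on the array. Kidney RNA came from female CBL/6 mice, 8 to 10 weeks old, and was read on 3 Affymetrix Mouse Gene 1.0 ST arrays with 1 array per group. The control array held kidney of mice without treatment. The NTS array held kidney from mice injected once with sheep nephrotoxic serum, an antiserum that causes acute nephritis, at 13.5 ug per g body weight. The NTS/PGE2 array held kidney from mice that had the same serum injection and then prostaglandin E2 (PGE2) at 5 ug per g body weight every day from day 2. The treated mice were killed on day 7. Whether an array held RNA of 1 animal or a pool was not given in the sources used here, and without replicates no difference could be tested.

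The ER folds secreted and membrane proteins, and unfolded protein there is sensed by 3 membrane proteins, IRE1 (Ern1), PERK (Eif2ak3) and ATF6. ATF6 and the spliced form of XBP1 switch on chaperone genes, while PERK and its sister kinases phosphorylate eIF2-alpha, which slows translation in general but favours that of ATF4. ATF4 and its partners then switch on genes for amino acid supply and, through CHOP (Ddit3), for cell death; this shared arm is the integrated stress response. In the kidney, tubule cells and podocytes are both known to use these pathways under proteinuria and immune injury.

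The promoters of the 10 genes are shown first, as a description of the genes. Whether a motif goes with a difference between arrays was not tested. RefSeq promoters (GRCm38.p6, 250 bases before to 50 after the start site) were found for 10 of 10. They were searched on both strands for the ER stress element (ERSE), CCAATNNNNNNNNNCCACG, a site of NF-Y and ATF6, and for the core of the C/EBP-ATF response element (CARE), TGATGNAA, where ATF4 binds with a partner. The ERSE was found in Hspa5 and Hsp90b1 and in 0.119% of all 32851 promoters in the table. The CARE core was found in Atf3, Trib3, Asns and Chac1 and in 3.97% of all promoters. Of the 32851 promoters, 0 held both, but with the ERSE in only 39 of them this count says little. The stretches before the start site are given 5′ to 3′ along the gene, with the matched letters in capitals; Hsp90b1 holds 2 ERSE matches, the second of them on the opposite strand. They are chr2:34771840-34772089 (+ strand) for Hspa5, chr10:86705445-86705694 (- strand) for Hsp90b1, chr6:7693210-7693459 (- strand) for Asns, chr1:191183334-191183583 (- strand) for Atf3 and chr2:119350992-119351241 (+ strand) for Chac1.
Hspa5: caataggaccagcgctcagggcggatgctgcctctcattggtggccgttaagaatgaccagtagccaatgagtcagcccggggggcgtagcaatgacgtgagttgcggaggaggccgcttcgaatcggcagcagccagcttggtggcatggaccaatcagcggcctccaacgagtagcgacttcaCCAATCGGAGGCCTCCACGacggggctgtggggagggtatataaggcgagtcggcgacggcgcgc
Hsp90b1: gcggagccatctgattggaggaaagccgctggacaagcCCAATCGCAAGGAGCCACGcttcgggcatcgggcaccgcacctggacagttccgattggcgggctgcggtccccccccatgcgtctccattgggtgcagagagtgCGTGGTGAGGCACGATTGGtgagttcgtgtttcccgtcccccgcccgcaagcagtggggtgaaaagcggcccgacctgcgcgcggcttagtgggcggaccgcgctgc
Asns: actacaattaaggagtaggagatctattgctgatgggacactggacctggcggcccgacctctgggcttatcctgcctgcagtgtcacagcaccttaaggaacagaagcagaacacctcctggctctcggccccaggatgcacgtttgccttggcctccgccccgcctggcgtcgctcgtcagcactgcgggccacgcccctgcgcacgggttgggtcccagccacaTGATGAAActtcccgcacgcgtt
Atf3: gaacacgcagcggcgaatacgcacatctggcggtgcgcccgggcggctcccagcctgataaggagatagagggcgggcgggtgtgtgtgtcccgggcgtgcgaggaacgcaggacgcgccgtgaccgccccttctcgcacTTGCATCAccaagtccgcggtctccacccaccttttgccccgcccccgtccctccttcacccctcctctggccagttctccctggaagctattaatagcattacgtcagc
Chac1: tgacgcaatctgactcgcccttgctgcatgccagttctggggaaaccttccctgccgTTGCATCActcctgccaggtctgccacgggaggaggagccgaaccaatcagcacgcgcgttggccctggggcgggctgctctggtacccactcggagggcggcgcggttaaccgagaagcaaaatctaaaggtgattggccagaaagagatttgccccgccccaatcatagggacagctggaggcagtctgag

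The ERSE match of Hspa5 began 65 bases before the start site, and the matches of Hsp90b1 began 212 and 107 bases before it. The CARE core of Asns began 23 bases before the start, that of Atf3 110 and that of Chac1 193 bases before it. In Trib3 the core, ttacatca on the gene's strand, lay just after the start, at chr2:152344039-152344046. Dnajb9, Xbp1, Ddit3 and Atf4 held neither motif in this window. None of the 10 promoters held TGACGTGG, the unfolded protein response element (0.676% of all promoters) or the cAMP response element TGACGTCA (1.79%). A match describes letters and does not show that a factor bound there. Trib3 and Chac1 hold the CARE core as Asns and Atf3 do, and the array values of each are given below.

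The arrays had median log2 values of 7.11, 7.11 and 7.14, in the order control, NTS and NTS/PGE2, as quantile normalisation sets them. Markers of the nephron were present: the brightest loop and distal tubule marker, Umod (uromodulin), read 13.70, 13.64 and 13.74 in that order. On the NTS array 9 of 9 proximal tubule markers and 7 of 7 loop and distal tubule markers were lower than on the control array, 8 and 5 of them at least 2-fold, and 7 of 7 injured tubule markers were higher. The log2 of the summed proximal tubule level was 15.86, 14.26 and 15.90, and that of the injured tubule markers 12.14, 14.61 and 11.17. Fat markers stood apart on the control array, where 7 of 8 were at least 2-fold higher than on each of the other arrays and the log2 of their summed level was 13.84 against 10.25 and 10.62. The part of these shifts in the results below was not tested. In whole kidney RNA, fewer cells of a type and less RNA per cell cannot be told apart.

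Of the 10 genes, 2 differed by 1.5-fold or more between any pair of arrays, and none by as much as 2-fold. The amino acid synthesis gene Asns and the stress transcription factor gene Atf3 stood highest on the NTS array and lowest on the NTS/PGE2 array. The chaperone genes Hspa5 and Hsp90b1 instead stood highest on the NTS/PGE2 array. Atf4, Trib3 and Ddit3 read nearly or exactly the same on all 3 arrays.

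**Figure D1:**
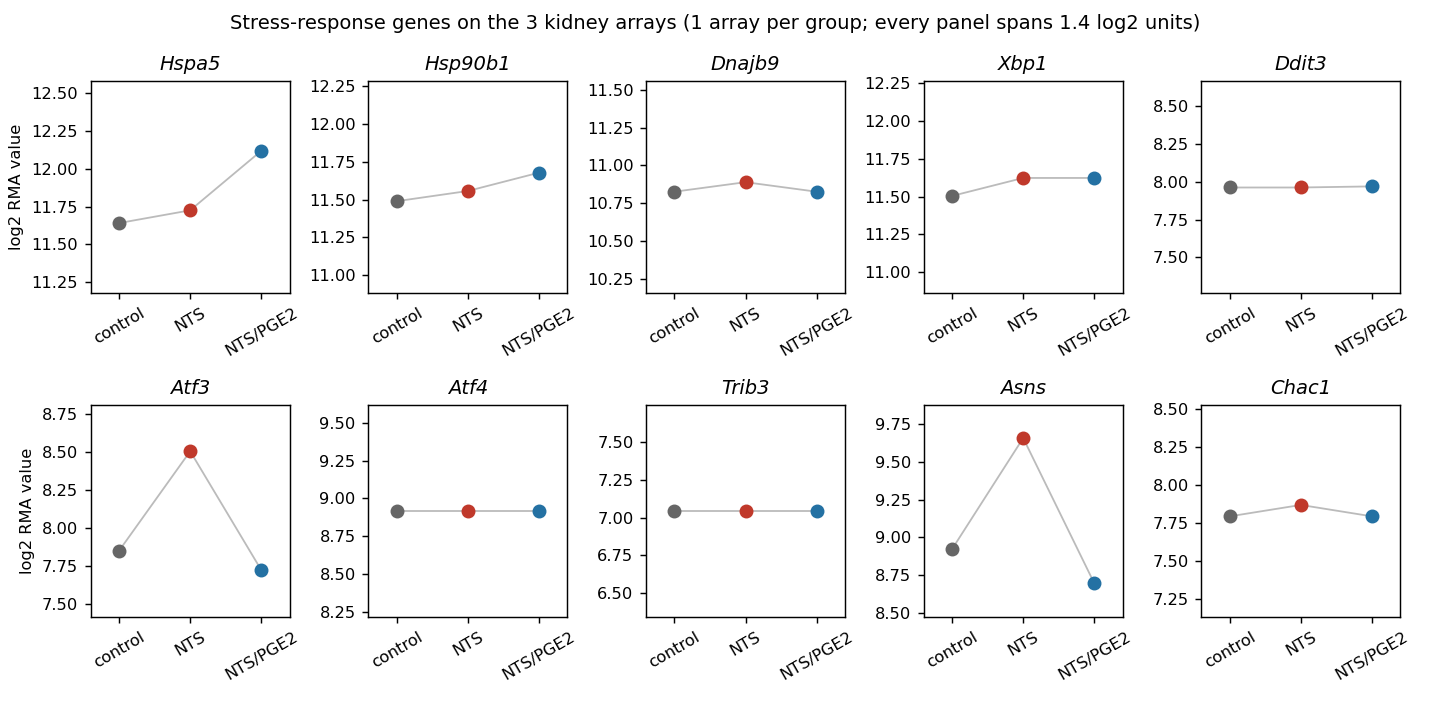
Log2 RMA value (y axis) of each of the 10 genes on the control, NTS and NTS/PGE2 arrays (x axis); each point is 1 array, grey lines join the points of a gene, and every panel spans 1.4 log2 units. Asns and Atf3 peak on the NTS array at 9.66 and 8.51, Hspa5 is highest on the NTS/PGE2 array at 12.12, and Atf4 and Trib3 are flat.

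Hspa5 encodes BiP (GRP78), the main HSP70 chaperone of the ER, which also holds the stress sensors inactive. It read 11.64 in control, 11.72 in NTS and 12.12 in NTS/PGE2 kidney. The NTS/PGE2 array thus stood apart from both others, by 0.48 log2 units (1.39-fold) from control and by 0.39 (1.31-fold) from NTS. Against control, 0.98% of the 11534 genes that passed a filter for dim genes differed upward by as much. In size, either way, 4.29% did. For that filter, the higher of a gene's 2 values had to reach the median of all probe sets on its array. Against NTS, where differences were wider, the shares were 15.6% upward and 30.7% in size.

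Hsp90b1 encodes GRP94, the ER form of HSP90, which folds integrins and Toll-like receptors. It read 11.49, 11.56 and 11.68, in the order control, NTS and NTS/PGE2. The order was that of Hspa5 and the differences were smaller, 0.19 from control and 0.12 from NTS. As a yardstick, genes read by a pair of bright probe sets gave a technical SD of a single probe set's difference of 0.13 for NTS/PGE2 relative to control (443 genes) and 0.19 for the comparisons with the NTS array (438 genes each). The Hspa5 differences of NTS/PGE2 from control and from NTS were larger than that SD. For Hsp90b1 the first was larger and the second smaller. The yardstick leaves out the spread between animals. It also leaves out any error that both probe sets of a gene share, such as that of RNA preparation or of a whole array.

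Dnajb9 encodes ERdj4, a co-chaperone of BiP that is a target of spliced XBP1. It read 10.83 in both control and NTS/PGE2 kidney, with these values exactly equal, and 10.89 in NTS kidney. Xbp1, the transcription factor gene whose RNA IRE1 splices, read 11.50 on the control array and 11.62 on both others. Neither moved by more than 0.12, which is within the technical SD. The probe set reads total Xbp1 RNA, so these values say nothing about its splicing.

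Atf4, the central transcription factor of the integrated stress response, read 8.92 on all 3 arrays, with the deposited values exactly equal. ATF4 is controlled largely at translation, which RNA does not show. RMA's median polish over 3 arrays can return equal values, and 25.4% of all probe sets had them, so an equal reading leaves a small change possible. Equal readings on a pair of arrays only, as for Dnajb9, Xbp1, Ddit3 and Chac1, carry the same limit. Ddit3, which encodes the pro-apoptotic factor CHOP, read 7.96 on the control and NTS arrays and 7.97 on the NTS/PGE2 array. Trib3, a pseudokinase induced by ATF4 and CHOP, read 7.05 on all 3 arrays, again exactly equal. It lay below the array medians and was the only one of the 10 that failed the filter, in each of the 3 comparisons.

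Atf3, a stress-induced repressor and activator of the ATF/CREB family, read 7.85 in control, 8.51 in NTS and 7.72 in NTS/PGE2 kidney. The NTS array stood above both others, by 0.66 (1.58-fold) over control and by 1.72-fold over NTS/PGE2, where NTS/PGE2 minus NTS was -0.78. Chac1, which breaks down glutathione and is a target of ATF4, read 7.79, 7.87 and 7.79 in the order control, NTS and NTS/PGE2. It had its highest value on the same array as Atf3, yet by 0.08 only, less than the technical SD.

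Asns encodes asparagine synthetase, a classic ATF4 target in amino acid shortage. It read 8.92 in control, 9.66 in NTS and 8.70 in NTS/PGE2 kidney. The NTS value was 0.73 above control (1.66-fold), and NTS/PGE2 minus NTS was -0.96 (1.94-fold lower). The latter was the largest difference of any of the 10 genes in the 3 comparisons and lay just short of 2-fold. In size, 13.9% of genes differed at least as much as Asns for NTS relative to control, and 8.21% for NTS/PGE2 relative to NTS. On the NTS/PGE2 array Asns and Atf3 were also slightly below control, by differences of -0.23 and -0.13.

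Counted by a rule of size, which is no test, 0 of the 10 genes were at least 2-fold different in any of the 3 comparisons. The background over all genes passing the filter for NTS relative to control was 2.7% higher and 5.42% lower by this rule. For NTS/PGE2 relative to NTS it was 4.15% higher and 3.28% lower, and for NTS/PGE2 relative to control 0.0607% higher and 0.659% lower. At 1.5-fold, 2 of the 9 genes that passed the filter, Asns and Atf3, stood above control on the NTS array, beside 7.62% of all genes, and 0 were lower, beside 11.9%. The same 2 were at least 1.5-fold lower in NTS/PGE2 than in NTS kidney, beside 8.93% of all genes, and 0 were higher, beside 9.98%. For NTS/PGE2 relative to control 0 passed 1.5-fold either way, beside 0.555% higher and 2.15% lower. Any pair of the 3 comparisons shares an array, so they are not independent of one another. A high value on the NTS array alone enters both comparisons that use it. With 9 genes, these counts are too small to set the group apart from the background.

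Over all 10 genes the median difference was 0.07 for NTS relative to control, 0 for NTS/PGE2 relative to NTS and 0 for NTS/PGE2 relative to control. The median over all genes passing the filter was 0 in each of these comparisons. For NTS relative to control 7 of the 10 were higher, 0 lower and 3 equal, where 40.2% of all genes were higher, 40.6% lower and 19.1% equal; with array medians subtracted the 3 equal ones lay just below 0. For 5 of the 7 higher genes the difference was at most 0.12.

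**Figure D2:**
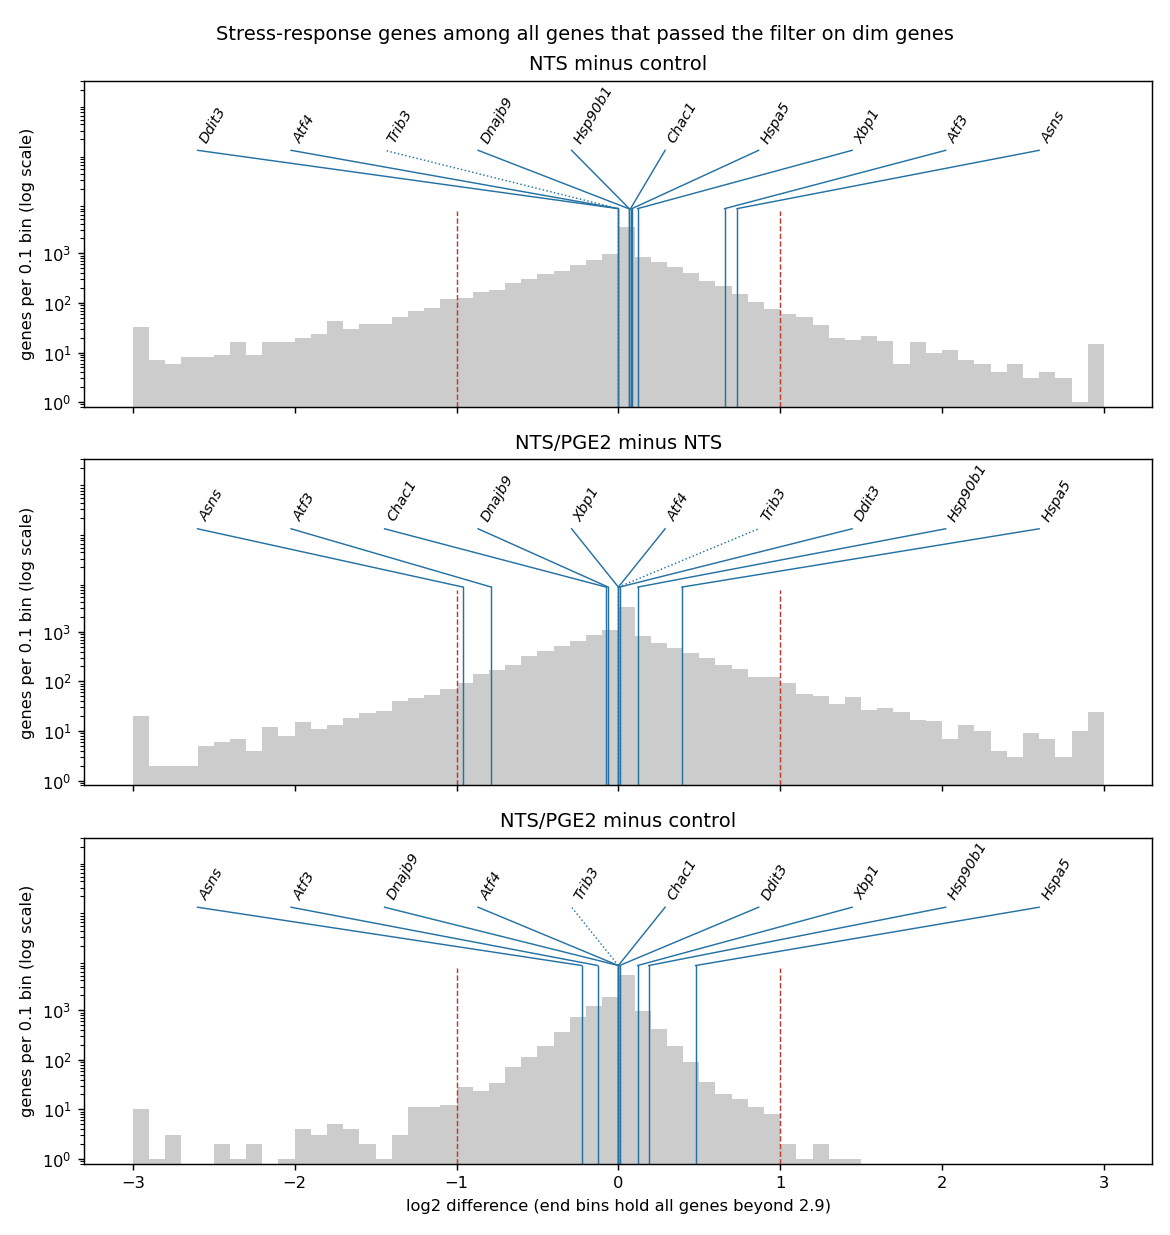
Number of genes per bin of log2 difference (y axis, log scale) in the 3 comparisons for all genes that passed the dim-gene filter (grey bars), with the 10 genes marked by blue lines (dotted for Trib3, which failed the filter) and 2-fold by red dashed lines. Asns and Atf3 lie at 0.73 and 0.66 for NTS relative to control, Hspa5 at 0.48 for NTS/PGE2 relative to control, and most others near 0.

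The sensor list held 12 genes, of which 10 were measured. Ern1 read 9.06, 9.04 and 9.06, Eif2ak3 8.94, 8.96 and 8.96, and Atf6 9.88, 10.00 and 9.98, in the order control, NTS and NTS/PGE2. The largest difference was in Ppp1r15a, encoding GADD34, which directs removal of the phosphate from eIF2-alpha and so ends the translation block. It read 8.21 in control, 9.12 in NTS and 8.05 in NTS/PGE2 kidney. Its pattern was that of Atf3 and Asns, with 0.91 for NTS relative to control and -1.07 for NTS/PGE2 relative to NTS. It was the only measured gene of the sensor list past 2-fold in any comparison. Eif2ak2 (PKR), the eIF2-alpha kinase that senses double-stranded RNA, read 7.97, 7.87 and 7.68, and its -0.28 for NTS/PGE2 relative to control was the largest difference of the list in that comparison.

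The chaperone and folding list held 20 measured genes, Hspa5 and Hsp90b1 among them. For NTS/PGE2 relative to control 16 were higher, 0 lower and 4 equal, with a median of 0.09, where 30.8% of all genes were higher, 41.1% lower and 28% equal and the median was 0. With each array's median subtracted, which turns equal readings into small negative ones, 14 were higher and 6 lower, where 25.1% of all genes were higher. None reached 1.5-fold on the deposited scale. The largest differences were in Creld2, a secreted ER stress protein, at 0.49, in Hspa5, and in Pdia6, a protein disulfide isomerase, at 0.39. Creld2 read 9.66, 9.77 and 10.15, in the order control, NTS and NTS/PGE2, and so stood apart on the same array as Hspa5. Pdia6 read 9.29, 9.79 and 9.68, and was high on both serum arrays.

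For NTS relative to control the same list went both ways, with 11 higher, 7 lower and 2 equal and a median of 0.07, which was 0.03 when the brightest probe set stood for each gene. The disulfide isomerase gene P4hb was higher by 0.58 and Pdia6 by 0.50. Sdf2l1, a BiP co-factor, was lower at -0.40, and calnexin (Canx), the lectin chaperone of glycoproteins, at -0.26. For NTS/PGE2 relative to NTS 14 were higher, 5 lower and 1 equal, with a median of 0.12, where 39.8% of all genes were higher, 41.2% lower and 18.9% equal. There P4hb was lower at -0.32 while Sdf2l1 was higher by 0.45.

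In the list for ER-associated degradation, which clears misfolded proteins, 15 genes were measured, Dnajb9 among them. For NTS relative to control 5 were higher, 7 lower and 3 equal, where 40.2% of all genes were higher, 40.6% lower and 19.1% equal. Against control, 9 were higher on the NTS/PGE2 array, 2 lower and 4 equal, with a median of 0.07. There 30.8% of all genes were higher, 41.1% lower and 28% equal. With each array's median subtracted, 9 were higher and 6 lower on the NTS/PGE2 array, where 25.1% of all genes were higher. The largest difference between NTS/PGE2 and control was in Derl3, a channel component induced by XBP1. It read 7.71 in control, 7.64 in NTS and 8.25 in NTS/PGE2 kidney. The mannosidase-like genes Edem3 and Edem1 were lower on the NTS array than on control, at -0.63 and -0.28, and read 0.08 and 0.20 above control on the NTS/PGE2 array. The ubiquitin ligase gene Syvn1 (HRD1) was also 0.20 above control there. Derl3 is strongly used by plasma cells, which make much ER. Of 7 plasma cell markers, which include Derl3, 2 were higher on the NTS/PGE2 array than on control, 3 lower and 2 equal, and the log2 of their summed level was 9.98, 10.07 and 10.07 in the order control, NTS and NTS/PGE2. Relative to control the others differed on the NTS/PGE2 array by 0.29 for Mzb1, -0.06 for Sdc1, -0.07 for Prdm1 and -0.82 for Irf4, and were equal for Jchain and Tnfrsf17. Of the 7 markers only 3, Derl3, Mzb1 and Sdc1, passed the filter. The rest, Irf4 included, read below the array medians, so their differences and the counts are uncertain. Mzb1 read 7.30, 7.06 and 7.59 and so took the same order as Derl3. The part of plasma cells in the Derl3 difference was not tested.

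The ERSE was found in 8 of the 18 chaperone list genes with a promoter in the table, Hspa5 and Hsp90b1 included, and in 2 of 13 genes for degradation. It was found in 0 genes of the other 6 lists, where at 0.119% of all promoters a match would be rare in so few genes. A gene could have several promoters in the table, so shares of genes are not on the same footing as that share of promoters. The matches of 4 genes with an ERSE, all with values given above, are shown with the fixed letters in capitals. They lie at chr15:88819520-88819538 (Creld2, + strand), chr12:17266491-17266509 (Pdia6, + strand), chr10:75893242-75893260 (Derl3, + strand) and chr19:6046532-6046550 (Syvn1, + strand). Those of Creld2 and Derl3 match on the strand opposite to the gene.
Creld2: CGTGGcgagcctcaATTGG
Pdia6: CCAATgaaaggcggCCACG
Derl3: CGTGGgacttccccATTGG
Syvn1: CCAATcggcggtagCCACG

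Of the 8 chaperone list genes with an ERSE, 7 were higher on the NTS/PGE2 array than on control, 0 lower and 1 equal, with a median of 0.16. Of the 10 without, 7 were higher, 0 lower and 3 equal, with a median of 0.04. For NTS relative to control the medians were 0.08 and 0, and for NTS/PGE2 relative to NTS they were 0.15 and 0.10. Hyou1 and Manf, each 0.24 higher on the NTS/PGE2 array than on control, had no promoter among those searched and were left out. A gene without an ERSE is here one without an exact match of its letters. This split was made after the values were seen and was not tested.

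The list of ATF4 and CHOP stress targets held 17 measured genes, with Ddit3, Atf3, Trib3 and Chac1 among them, and 15 passed the filter for NTS relative to control. Of these, 4 reached 2-fold upward on the NTS array and 0 downward, beside the background of 2.7% and 5.42% given above. Of the 17 measured, 12 were higher, 2 lower and 3 equal, where 40.2% of all genes were higher, 40.6% lower and 19.1% equal. The list median was only 0.09, with most of its genes near 0 and a few far out. Ddit4 (REDD1), an inhibitor of mTORC1, read 8.74 in control, 10.57 in NTS and 8.63 in NTS/PGE2 kidney. Sesn2 (sestrin 2), a leucine sensor and stress gene, read 9.26, 10.83 and 9.20 in the same order. Both were high on the NTS array alone, by 1.83 and 1.58 over control.

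Gadd45a, a growth arrest gene, was 1.15 higher on the NTS array than on control, and Nupr1, a stress-induced nuclear protein, 1.10 higher. On the NTS/PGE2 array all 4 lay close to control, with differences of -0.11 for Ddit4, -0.06 for Sesn2, -0.06 for Gadd45a and -0.26 for Nupr1. With NTS as the base, the same 4 genes were lower by 2-fold or more in NTS/PGE2 kidney, beside 3.28% of all genes. They were named for their differences between NTS and control, and both comparisons use the NTS array, so this is no separate result. Sesn2 and Gadd45a are also known targets of p53 and Ddit4 of hypoxia and glucocorticoids, so these genes do not read ATF4 alone. The ATF4 targets Chac1 and Trib3, of which Trib3 failed the filter, were among the genes near 0.

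The amino acid supply list, with Asns among 17 measured genes, split on the NTS array. Psat1, an enzyme of serine synthesis, read 8.80 in control, 9.63 in NTS and 8.23 in NTS/PGE2 kidney. It followed the order of Asns, with 0.83 for NTS relative to control and -1.40 for NTS/PGE2 relative to NTS. In the opposite direction, Cth, which makes cysteine from cystathionine, read 11.66, 10.40 and 11.78. Shmt2, the mitochondrial serine hydroxymethyltransferase, read 10.65, 9.47 and 10.06, lower on both serum arrays. The list median was 0 for NTS relative to control, and 2 of the 15 genes that passed the filter were at least 2-fold lower and 0 at least 2-fold higher, beside 5.42% and 2.7% of all genes. Slc38a2 (SNAT2), a neutral amino acid transporter induced by ATF4, stood highest on the NTS/PGE2 array, at 11.21, 11.04 and 11.71.

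The cytosolic tRNA synthetase list, whose genes ATF4 also drives, had a median of 0.02 for NTS relative to control over 19 measured genes. The valine enzyme gene Vars was higher by 0.82 and the glycine enzyme gene Gars by 0.57, and 0 genes were 2-fold different in any of the 3 comparisons. The CARE core was found in 5 of 14 of these genes with a promoter in the table, in 7 of 17 of the ATF4 and CHOP list and in 4 of 15 of the amino acid list. A gene could have several promoters there, so these shares are not on the same footing as the 3.97% of all promoters. Nupr1 held the core and Ddit4, Sesn2 and Gadd45a did not.

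**Figure D3:**
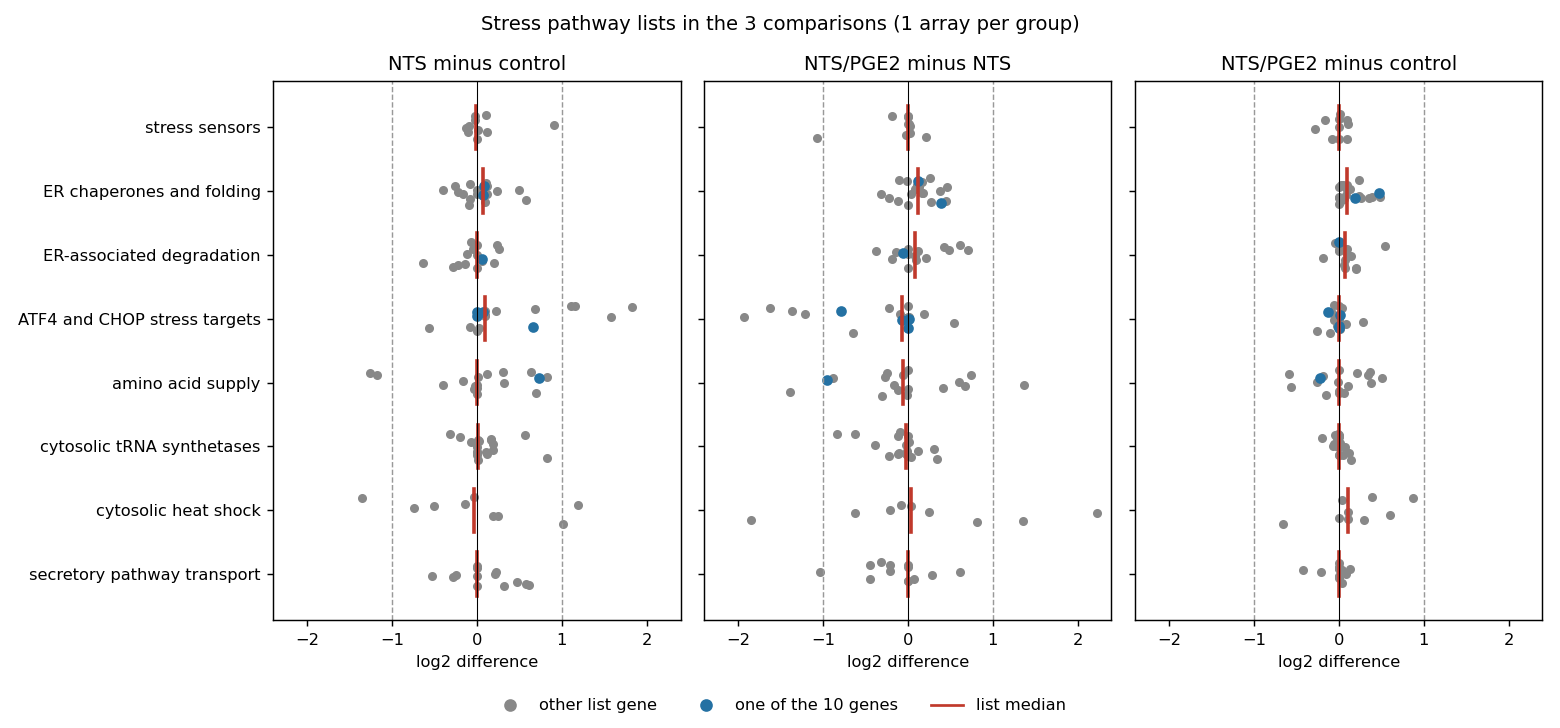
Log2 difference (x axis) of every measured gene of the 8 stress pathway lists (rows) in the 3 comparisons (panels); grey points are single genes, blue points are those of the 10 genes that belong to a list (8 of them), red bars are list medians and dashed lines mark 2-fold. The chaperone list lies at or above 0 for NTS/PGE2 relative to control, and 4 ATF4 and CHOP targets lie beyond 2-fold for NTS relative to control.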

How the data were processed

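Biotin-labelled cDNA from 250 ng total kidney RNA per array was run on Mouse Gene 1.0 ST arrays of Affymetrix, as the labels' protocols state. The authors' deposited log2 values came from RMA in Affymetrix Expression Console, per the submitters' processing notes. No version or genome build was given in the sources used here. This method corrects background, equalises the arrays' distributions and summarises each probe set by median polish, which can understate small differences.

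Of 35556 probe sets, the platform annotation gave 21789 a single symbol and 1621 several, and left 12146 unnamed here. Only single-symbol probe sets were used, and their mean was taken per gene, giving 19938 genes; 21698 single-gene probe sets matched the GRCm38.p6 RefSeq table. Differences of log2 values were computed for 3 comparisons with Python 3.11.15, pandas 2.3.3 and numpy 2.4.6. Counts took genes whose higher value reached the array median, and the size rule was a log2 difference of 1. With 1 array per group no test was run and no depth applies; the number of arrays limits the precision.

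The genes, the 8 pathway lists, the 10 marker lists and the alternatives were chosen with earlier results of these data known. Named were the 10 genes, up to 4 genes of each list with the largest differences for NTS relative to control and up to 3 for NTS/PGE2 relative to control; the sensors Ern1 and Eif2ak3 were added for their role. Patterns were to be matched for any of the 10 genes at least 2-fold different, and 0 were. Calculations were checked on simulated data. Alternatives concerned scaling, probe set choice, the filter and the size rule.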

Additional observations from a re-analysis of the deposited data

How the results depend on the processing

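Scaling and probe set choices moved the 10 genes' differences by at most 0.03, in 120 recomputed values. These choices were subtracting each array's median or the filtered genes' median difference, taking the brightest probe set, and using probe sets with several symbols. Many of these values could not move. Each of the 10 genes has 1 probe set, so the brightest was the same one, and the filtered genes' median difference was 0. Subtracting array medians shifts all genes alike, here by 0.03 at most. The small shifts therefore say little about how firm the values are. Only Ddit3 changed sign, both times with array medians subtracted, to -0.02 against NTS and -0.02 against control on the NTS/PGE2 array. With no filter, or with the filter at the 25th percentile, counts stayed within 1.5 times of those reported. The 1.5-fold size rule, looser by construction, raised many counts. For the 10 genes it gave 2 for NTS relative to control and 2 for NTS/PGE2 relative to NTS. For all genes it gave 898 higher and 1406 lower for NTS relative to control, 1167 and 1045 for NTS/PGE2 relative to NTS, and 64 and 248 for NTS/PGE2 relative to control. The shares of all genes at 1.5-fold are given above with the counts of the 10 genes. By list, either way, NTS relative to control gave 1 of 10 sensors passing the filter and 1 of 15 genes for ER-associated degradation. It gave 1 of 19 tRNA synthetases, 1 of 13 for secretory transport and 5 of 15 for amino acid supply. For the ATF4 and CHOP targets it gave 6 of 15, for cytosolic heat shock 4 of 9 and for the chaperones 0 of 20. NTS/PGE2 relative to NTS gave 2 each for ER-associated degradation, the tRNA synthetases and secretory transport, 7 for amino acid supply and 5 for cytosolic heat shock. It gave 6 for the ATF4 and CHOP targets, 1 for the sensors and 0 for the chaperones. NTS/PGE2 relative to control gave 1 for amino acid supply, 3 for cytosolic heat shock and 0 for each of the other lists. No paired analysis was possible because each group has 1 array. No scanner values were analysed here, so signal could not be set against background.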

Other observations

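The heat shock genes of the cytosol, which answer misfolded protein outside the ER, differed more than the 10 ER and integrated stress response genes, and in both directions. For NTS relative to control, 2 of 9 measured were at least 2-fold higher and 1 at least 2-fold lower, beside 2.7% and 5.42% of all genes. On the NTS/PGE2 array 7 of the 9 were higher than on control, 1 lower and 1 equal, with a median of 0.11. Of all genes, 30.8% were higher there, 41.1% lower and 28% equal. With 9 genes these counts are small. Hsph1, an HSP110 chaperone, read 9.69 in control, 8.33 in NTS and 10.56 in NTS/PGE2 kidney. Hspa1a, an inducible HSP70, read 9.70, 8.96 and 10.31 in the same order; it has a near copy in Hspa1b, so its value is uncertain. Both were lowest on the NTS array and highest on the NTS/PGE2 array, the array on which Hspa5 was highest. Hspb1 (HSP27), a small heat shock protein, went the other way at 10.89, 12.09 and 10.24. Bag3, a co-chaperone of HSP70, read 9.45, 10.47 and 9.84, higher on both serum arrays.

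In the list for secretory transport, Kdelr3, which returns escaped chaperones to the ER, read 7.14 in control, 7.75 in NTS and 6.71 in NTS/PGE2 kidney. Lman1, a cargo receptor for glycoproteins, differed by -0.53 for NTS relative to control, while Sec24d, a COPII coat subunit, was 0.57 higher and Sec61b, of the translocon, 0.48 higher. The medians of this list were 0 in each of the 3 comparisons.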
